A study of Homo sapiens with 9 samples.

Results

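The Tribbles and C/EBP genes comprise 3 genes for Tribbles pseudokinases (TRIB1, TRIB2 and TRIB3) and 5 genes for CCAAT/enhancer-binding proteins (CEBPA, CEBPB, CEBPD, CEBPE and CEBPG). Members were all probes whose annotated gene symbol was one of these 8 names, which gave 1 probe per gene and 8 probes out of 48803 on the array, or 8 of 18660 genes with a named probe. RNA came from THP-1, an established human monocytic leukemia cell line that grows in suspension and resembles immature monocytes. It was hybridised to Illumina bead arrays in 3 states, replated, frozen and fresh, with 3 arrays labelled as biological replicates in each and 9 arrays in all. The labels give no genotype, drug or added agent and no freezing, thawing or culture times. Nothing in them says how the replicates of a state were separated, so p-values measure the spread between these arrays, which may be partly technical. The comparisons ask whether RNA taken from cells frozen in liquid nitrogen, or from replated cells, has the profile of RNA from fresh cells.

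Tribbles proteins have a kinase fold with little or no catalytic activity and act as scaffolds. They hold a substrate next to the ubiquitin ligase COP1, and the best known substrate is C/EBP alpha, which TRIB1 and TRIB2 drive to degradation. TRIB3 is known mainly as a gene induced by ATF4 and CHOP (the product of DDIT3) during amino acid shortage and endoplasmic reticulum stress. C/EBP proteins are basic leucine zipper (bZIP) transcription factors that bind DNA as dimers. C/EBP alpha directs myeloid commitment, C/EBP beta and delta act in monocytes and in inflammation, C/EBP epsilon acts late in granulocyte development, and C/EBP gamma lacks the activation domains of the others and works through its dimer partners.

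TRIB1 was the member that differed most between states. Its transcript was highest in frozen cells, intermediate in fresh cells and lowest in replated cells, and no array of one state overlapped any array of another. TRIB3 was lower in replated than in frozen cells by a much smaller amount, a call that held in 10 of 20 alternative settings of the processing. CEBPA, CEBPB and CEBPE did not pass the test in any comparison. CEBPD and CEBPG were slightly higher in replated cells without passing it, and CEBPG missed it narrowly against frozen cells. TRIB2 was near background on all arrays.

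Signals are given as intensity units before normalization, and as normalized log2 signal after background correction and quantile normalization. A probe counted as detected on an array where its detection p, the chance of such a signal among negative controls, was under 0.05. The 7 members other than TRIB2 were detected on at least 3 arrays and so were among the 18102 probes tested. Of these, 6 had a detection score (1 minus the detection p) of 1.00 on all 9 arrays, and CEBPE was the exception. Differences come from a linear model over all 9 arrays (limma), and adjusted p is limma's p after Benjamini-Hochberg adjustment over those 18102 probes, and a probe was called where that value lay below 0.05. The 2 families were chosen by the signals of their probes on these 9 arrays, with the differences between states known. Every comparison of the 3 states is therefore a description of the members, and the adjusted p only places a probe in the fit over all probes. Values after ± are SDs for state means and standard errors for differences, with n = 3 arrays per state.

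Across arrays the mean signal before normalization lay between 299.6 and 367.1 units (lowest in frozen replicate 2), and 16898 to 17679 probes were detected. All 9 monocytic markers with a named probe, among them CD14, LYZ, MPO and CSF1R, were detected on all 9 arrays. Their summed signal was 14119 to 15268 units in replated, 9481 to 12241 in frozen and 11858 to 12961 in fresh arrays, so that the replated arrays lay above all others. LYZ alone gave 4288 to 4860 of those units in replated, 2103 to 2706 in frozen and 2492 to 2836 in fresh arrays. The sum without LYZ was not taken, so the sums do not describe the markers as a group. Of these 9 genes LYZ was called higher in replated cells in both comparisons, FCGR1A, a monocyte Fc receptor gene, was called higher in replated than in frozen cells (0.25 ± 0.059, adjusted p = 0.0248), and no other was called. A dimmer second FCGR1A probe differed by 0.27 between replated and frozen cells without passing (adjusted p = 0.24). Of 12 markers of other cell types, 8 were detected on no array, including CD3E, HBB, EPCAM and COL1A1, while MS4A1, CD79A, NCAM1 and PECAM1 were detected on some or all. PECAM1, which monocytes also carry, was higher in replated than in frozen cells (log2 difference 0.26, adjusted p = 0.0496) and the other 3 did not pass in any comparison. The summed signal of the 12 markers of other cell types was 1860 to 2049 units in replated, 1526 to 1927 in frozen and 1863 to 2053 in fresh arrays, and without PECAM1 it was 672.6 to 708.2, 682.3 to 777.0 and 697.8 to 760.0 units. The part of either marker group in the results below was not tested.

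The TRIB1 probe (ILMN_1803811) had signals of 247.9, 222.9 and 241.2 units in replated cells. In frozen cells the signals were 781.8, 767.5 and 642.9 units, and in fresh cells 424.9, 423.4 and 403.9 units. The 3 states formed separate groups even before any correction, with the lowest frozen array above the highest fresh array and the lowest fresh array above the highest replated array. On the normalized log2 scale TRIB1 averaged 7.56 ± 0.12 in replated, 9.53 ± 0.19 in frozen and 8.48 ± 0.06 in fresh cells. In the authors' processed values the means were 171.3 ± 16.5, 725.1 ± 103.0 and 339.8 ± 15.5 units for replated, frozen and fresh cells, again with no overlap.

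TRIB1 rose 2.06-fold in frozen against fresh cells (log2 difference 1.05 ± 0.10, 95% interval 0.82 to 1.27, adjusted p = 0.000755). It fell 1.89-fold in replated against fresh cells (-0.92 ± 0.10, -1.15 to -0.69, adjusted p = 0.00137). In replated against frozen cells it fell 3.90-fold (-1.96 ± 0.10, -2.19 to -1.74, adjusted p = 2.19e-06). By size it was the 15th of 9313 probes that lay higher in frozen than in fresh cells, the 15th of 9200 that lay lower in replated than in fresh cells, and the 8th of 9320 that lay lower in replated than in frozen cells. These folds are on a scale with an added offset, which understates the change of dim probes. In RNA from a whole culture, a change within each cell and a change in the share of cells that carry the transcript cannot be told apart.

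**Figure D1:**
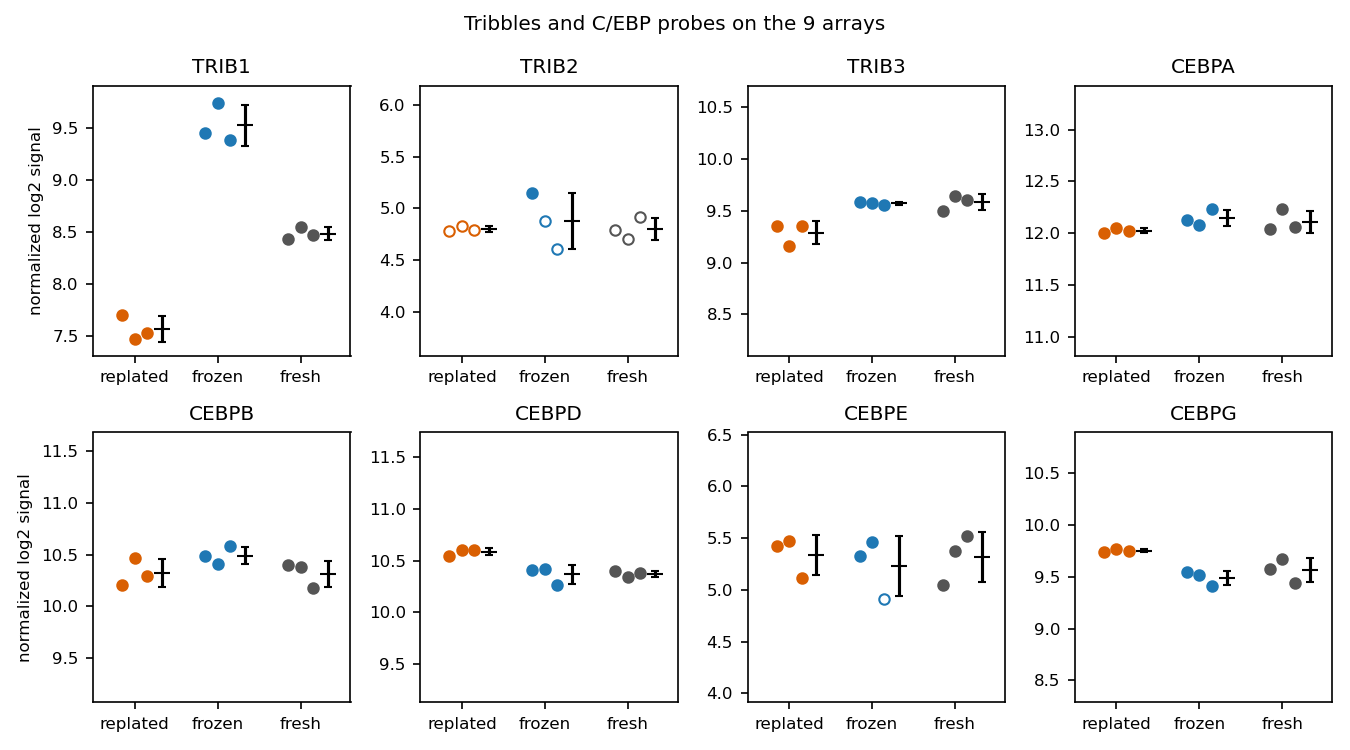
Normalized log2 signal (vertical axis, the same span in every panel) of the 8 probes on the 3 replated, 3 frozen and 3 fresh arrays. Filled points are arrays on which the probe was detected, open points those on which it was not, and bars show the mean and SD (n = 3). TRIB1 separates the 3 states, at means of 7.56, 9.53 and 8.48 in replated, frozen and fresh cells, and in each other panel the state means lie within 0.30 of each other.

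TRIB1 was one of 22 among the 18102 tested probes (0.122%) called in all 3 comparisons. It was also one of 14 probes (0.0773%) called in all 3 and ordered with frozen highest and replated lowest. The other genes named by those probes, listed for that pattern and so after their values were seen, were ABL1, CCN1, DUSP1, EGR1, FOS, FOSB, JUN, KLF2, NR4A2, SNORD21, SNORD68 and ZNF669. Likeness to TRIB1 was measured over the 9 arrays as the root mean square difference between log2 profiles after each gene's own mean was taken off. Of 10912 genes outside the 2 families, the nearest were CCN1, a secreted matricellular protein gene (0.214 log2 units), KLF2, a Kruppel-like transcription factor gene (0.256), and the chemokine gene CCL3 (0.286). The median over all genes was 0.817, and the TRIB1 profile itself lay 0.811 from a flat line. CCN1 was detected on 0 of 3 replated arrays and CCL3 on 1 of 3, so their lowest values lie at background, whereas TRIB1 was detected on all 9 arrays.

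These 3 genes were picked for their likeness on the same arrays, so their differences describe that choice and support nothing. KLF2 rose 1.94-fold in frozen against fresh cells (0.96 ± 0.080, adjusted p = 0.000233), fell 1.37-fold in replated against fresh cells (-0.45 ± 0.080, adjusted p = 0.0137) and fell 2.66-fold in replated against frozen cells (adjusted p = 4.27e-06). CCN1 was at least 1.78-fold lower in replated than in fresh cells (adjusted p = 0.00159), with the replated level set at the dimmest detected signal. It rose 1.54-fold in frozen against fresh cells (adjusted p = 0.0349). CCL3 passed in frozen against fresh cells (0.998 ± 0.17, adjusted p = 0.0244) but not in replated against fresh cells (-0.44 ± 0.17, adjusted p = 0.187).

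**Figure D2:**
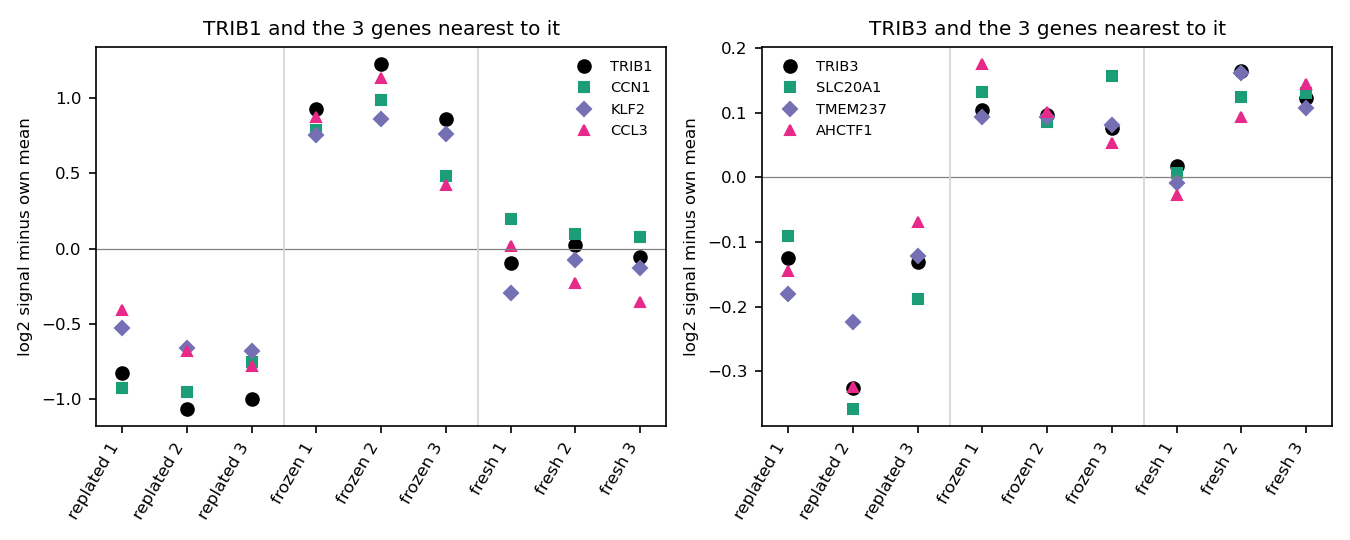
Log2 signal minus each gene's own mean over the 9 arrays (vertical axis) on each replated, frozen and fresh array (horizontal axis), for TRIB1 with CCN1, KLF2 and CCL3 (left) and for TRIB3 with SLC20A1, TMEM237 and AHCTF1 (right). The vertical scales differ. TRIB1 averages -0.96 in replated, 1.00 in frozen and -0.04 in fresh cells, and TRIB3 -0.19, 0.09 and 0.10.

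TRIB3 (probe ILMN_1787815) had signals of 692.7, 616.3 and 738.0 units in replated cells, 856.3, 681.7 and 719.3 in frozen cells and 845.2, 857.2 and 847.3 in fresh cells. Before normalization the replated and frozen arrays overlapped. After it the replated arrays, at 9.36, 9.16 and 9.35, lay below the frozen arrays at 9.59, 9.58 and 9.56 and the fresh arrays at 9.50, 9.65 and 9.60. TRIB3 fell 1.22-fold in replated against frozen cells (-0.29 ± 0.076, 95% interval -0.45 to -0.12, adjusted p = 0.0358). Against fresh cells the difference was as large but did not pass (-0.30 ± 0.076, adjusted p = 0.0563), although it passed in 5 of 20 alternative settings. Between frozen and fresh cells it was -0.01 ± 0.076 (interval -0.18 to 0.16), a range that leaves out changes of more than about 1.13-fold in either direction.

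The call of TRIB3 in replated against frozen cells was lost in 10 of 20 alternative settings. It was lost when any 1 of the 3 replated or 3 frozen arrays was left out (adjusted p between 0.0520 and 0.104), in the authors' processed values (adjusted p = 0.0545), with centring on the median of all probes (-0.18, adjusted p = 0.245), with the replicate number as a block (adjusted p = 0.0645) and when only the arrays of those 2 states were fitted (adjusted p = 0.0551). The genes nearest to TRIB3 in profile were SLC20A1, a phosphate transporter gene (0.0403 log2 units), TMEM237 (0.0404) and the nucleoporin-associated gene AHCTF1 (0.0442), against a median of 0.192 over all genes. All 3 were called lower in replated than in frozen cells, at log2 differences of -0.34, -0.26 and -0.29, with adjusted p between 0.0238 and 0.0487. Those choices rest on the same arrays, and a second AHCTF1 probe did not pass (-0.25, adjusted p = 0.0589).

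TRIB2 (probe ILMN_1714700) was detected on 1 of 9 arrays, frozen replicate 1, at 83.4 units. The other arrays lay between 61.0 and 69.7 units with detection scores from 0.777 to 0.950. It was not tested. Normalized log2 means were 4.80 ± 0.03 in replated, 4.88 ± 0.27 in frozen and 4.80 ± 0.11 in fresh cells, and all states overlapped.

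Among the C/EBP genes, CEBPA (probe ILMN_1715715) had signals of 4156 to 4471 units in replated, 3658 to 4715 in frozen and 4437 to 4871 in fresh cells, and was detected on all 9 arrays. Its normalized means were 12.02 ± 0.02 in replated, 12.15 ± 0.08 in frozen and 12.11 ± 0.11 in fresh cells. CEBPA, which encodes the substrate of TRIB1, differed by -0.09 ± 0.075 in replated against fresh cells (95% interval -0.25 to 0.08), by 0.03 ± 0.075 in frozen against fresh cells (-0.13 to 0.20) and by -0.12 ± 0.075 in replated against frozen cells (-0.29 to 0.04). The adjusted p of these 3 differences lay between 0.315 and 0.855. The widest interval reaches to about a 1.22-fold change of CEBPA transcript, across states in which TRIB1 differed by 1.89-fold to 3.90-fold. Arrays measure transcripts, so nothing here bears on the amount of C/EBP alpha protein.

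CEBPB (probe ILMN_1693014) had normalized means of 10.32 ± 0.14 in replated, 10.49 ± 0.09 in frozen and 10.32 ± 0.12 in fresh cells. The 3 frozen arrays (10.49, 10.41 and 10.58) lay above the 3 fresh arrays (10.40, 10.38 and 10.17) by a narrow margin, and the difference of 0.17 ± 0.092 did not pass (adjusted p = 0.362). CEBPE (probe ILMN_1779095) was dim, at 69.8 to 88.4 units, and detected on 8 of 9 arrays, all but frozen replicate 3 (detection score 0.946). Its residual SD was larger than that of 96.5% of tested probes. The 95% intervals of CEBPE reached from -0.44 to 0.46 across the comparisons, so differences of that size are not left out.

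CEBPD and CEBPG lay slightly higher in replated cells. CEBPG (probe ILMN_1716766) had signals of 880.3, 918.5 and 959.2 units in replated, 832.6, 656.9 and 654.3 in frozen and 889.3, 871.7 and 757.6 in fresh cells. On the normalized scale its replated arrays lay at 9.74, 9.77 and 9.75, above the frozen arrays at 9.54, 9.52 and 9.41. The difference of 0.26 ± 0.076 in replated against frozen cells had an adjusted p of 0.0501, just outside the threshold, whereas TRIB3 at 0.0358 lay just inside it. Against the fresh arrays, at 9.58, 9.67 and 9.44, the difference was 0.19 ± 0.076 (adjusted p = 0.198).

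CEBPD (probe ILMN_1782050) had signals of 1527, 1598 and 1702 units in replated, 1482, 1194 and 1155 in frozen and 1534, 1357 and 1417 in fresh cells. Normalized values were 10.55, 10.60 and 10.60 in replated, 10.41, 10.42 and 10.26 in frozen and 10.40, 10.34 and 10.38 in fresh cells, so that the replated arrays lay above all others. The difference was 0.22 ± 0.068 against frozen cells (adjusted p = 0.0636) and 0.21 ± 0.068 against fresh cells (adjusted p = 0.114). CEBPG passed in replated against frozen cells in 8 of 20 alternative settings, among them those without fresh replicate 2 (adjusted p = 0.0471) or fresh replicate 3 (0.0392). CEBPD passed in 5 of 20, and both kept their sign in all 20.

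**Figure D3:**
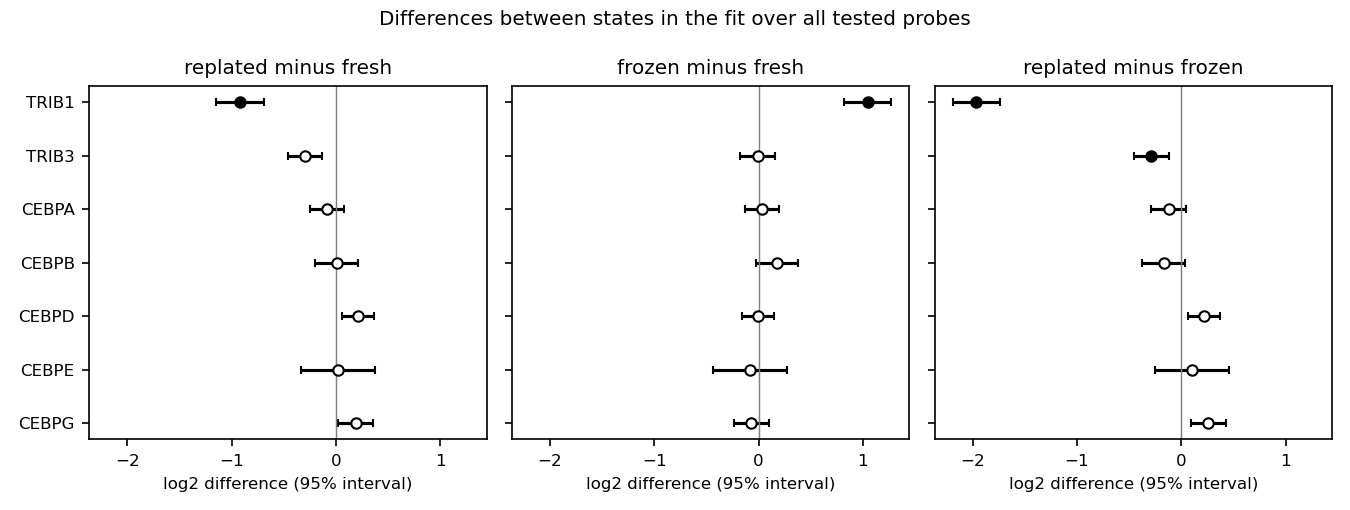
Log2 differences (horizontal axis) with 95% intervals from limma for the 7 tested members in replated minus fresh, frozen minus fresh and replated minus frozen cells. Filled points had an adjusted p under 0.05. TRIB1 lies at -0.92, 1.05 and -1.96, and the other 18 differences lie between -0.30 and 0.26.

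By count, 1 of the 7 tested members (TRIB1) fell and none rose in replated against fresh cells, where 4.13% of all tested probes were called, 2.22% higher and 1.91% lower. In frozen against fresh cells 1 of 7 rose (TRIB1) and none fell, where 1.02% of all probes were called, 0.486% higher and 0.53% lower. Between replated and frozen cells 2 of 7 fell (TRIB1 and TRIB3) and none rose, where 11.6% of all probes were called, 6.25% higher and 5.32% lower. Across the 3 states limma's moderated F test called the same 2 members (adjusted p = 7.57e-06 for TRIB1 and 0.0444 for TRIB3), where it called 9.63% of probes. Arrays did not overlap for 4 of 7 members in replated against fresh, 2 of 7 in frozen against fresh and 5 of 7 in replated against frozen cells, where 25.6%, 22.4% and 33.8% of all probes did not. The median difference of the 7 members was 0.007, -0.006 and -0.12 in those comparisons, beside -0.003, 0.006 and -0.007 over all probes. Since these comparisons entered the choice of the families, nothing is read from the shares.

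CEBPA and CEBPG are neighbours on chromosome 19, 71175 bases apart in GRCh38.p14, with CEBPA lowest and CEBPG highest in replated cells by their means, neither passing the test. TRIB1 and CEBPD were left out of the promoter search, so nothing is said of their promoters. Promoter windows of RefSeq (GRCh38.p14, 300 bases around a transcript start) were taken for TRIB2, TRIB3, CEBPA, CEBPB, CEBPE and CEBPG. They were searched on both strands for a CRE (TGACGTCA), its core (TGACG, which the full site contains), an AP-1 site (TGANTCA), a C/EBP site (TTGCNNAA), a composite C/EBP-ATF site (TGATGNAA), a CCAAT box (CCAAT) and an E box (CACGTG). The windows of TRIB2, TRIB3 and CEBPA held none of these letters. The matches in CEBPG, CEBPB and CEBPE are all those found, but for 1 that overlaps a stretch shown, and are given for the letters that each window holds, each 5′ to 3′ on the gene's strand with the match in capitals.
CEBPG, composite C/EBP-ATF site 42 bases before its second start, chr19:33374062-33374087, plus strand: cgcggcgtcTGATGCAAcctgccggc
CEBPG, CCAAT box read on the other strand 85 bases before its first start, chr19:33373615-33373637, plus strand: ctgcccacgATTGGtcgactggg
CEBPG, CCAAT box read on the other strand 24 bases before its first start, chr19:33373676-33373698, plus strand: ggcgctcccATTGGccgggatgg
CEBPB, CRE core 57 bases before its second start, chr20:50190764-50190786, plus strand: gggccggcgTGACGcagcggttg
CEBPB, CCAAT box at its first start, chr20:50190576-50190598, plus strand: ctctcgctcCCAATcccggggcg
CEBPE, AP-1 site 100 bases before its start, chr14:23119340-23119364, minus strand: gcccctcccTGAGTCAccccaaggg

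The composite letters of CEBPG occur in 3.62% of all 35116 promoter windows, the AP-1 letters of CEBPE in 7.71%, the CRE core in 24.6% and the CCAAT box in 34.6%. A match describes letters and not a bound site, and windows without a match say nothing of the factor.

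The gene lists from here on were chosen with earlier results of these data known, so their counts, shares and medians are a description only. Of 13 tested genes for binding partners and substrates of Tribbles proteins, 0 passed in any comparison by limma, where 4.59% of genes were called in replated against fresh (2.44% higher, 2.15% lower), 0.952% in frozen against fresh (0.467% higher, 0.485% lower) and 12.1% in replated against frozen cells (6.6% higher, 5.5% lower). At an unadjusted p under 0.05 by limma the counts were 1, 1 and 2 of 13, a threshold at which the share of all genes was not counted. The median differences were -0.06, -0.06 and 0.06. COP1, the ligase, differed by 0.03 ± 0.060 in replated against fresh, -0.07 ± 0.060 in frozen against fresh and 0.10 ± 0.060 in replated against frozen cells. STK40, a pseudokinase related to Tribbles, differed by -0.07, -0.14 and 0.06 in the same comparisons (adjusted p between 0.470 and 0.720), and its other, dimmer probe by 0.26, 0.02 and 0.24.

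Of 10 tested bZIP factors that pair with C/EBP proteins or are close to them, ATF3 rose 2.89-fold in frozen against fresh cells (adjusted p = 0.000172) and fell 2.79-fold in replated against frozen cells (adjusted p = 7.43e-05). BATF3 fell 1.33-fold in replated against fresh (adjusted p = 0.0270) and 1.52-fold in replated against frozen cells (adjusted p = 0.00280). By count 1 of the 10 fell in replated against fresh, 1 rose in frozen against fresh and 2 fell in replated against frozen cells. Over all genes 4.59%, 0.952% and 12.1% were called in those comparisons. The 10 genes had median differences of 0.06 in replated against fresh, 0.09 in frozen against fresh and 0.02 in replated against frozen cells. DDIT3, the inducer of TRIB3, differed by -0.01 ± 0.089 in replated against fresh cells, by 0.23 ± 0.089 in frozen against fresh cells and by -0.24 ± 0.089 in replated against frozen cells, and did not pass (adjusted p = 0.973, 0.230 and 0.111). The brightest ATF4 probe differed by -0.01 in replated against fresh and by -0.08 in replated against frozen cells, while another ATF4 probe was called lower in both (-0.63, adjusted p = 0.0118, and -0.45, adjusted p = 0.0242) and a further one was not.

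Genes of the ATF4 and CHOP program, which also induces TRIB3, were lower in replated cells for some members. Against frozen cells 4 of 10 tested genes fell and 1 rose in replated cells, where 5.5% of all genes were lower and 6.6% higher by the same test, with a median of -0.19 beside -0.004 over all genes. SLC7A5, an amino acid transporter gene, fell 1.45-fold (adjusted p = 0.000718), ASNS, asparagine synthetase, fell 1.29-fold (adjusted p = 0.00762), PSAT1, of serine synthesis, fell 1.25-fold (adjusted p = 0.0157) and the chaperone gene HSPA5 fell 1.19-fold (adjusted p = 0.0487). A dimmer second ASNS probe lay 0.43 higher in replated cells without passing (adjusted p = 0.0535). DDIT4, an inhibitor of mTORC1, went the other way and rose 2.17-fold (adjusted p = 6.49e-05). Against fresh cells, SLC7A5 and ASNS fell and DDIT4 rose in replated cells (2.15% of all genes lower, 2.44% higher), while the second ASNS probe differed by -0.01 (adjusted p = 0.987). In frozen against fresh cells DDIT4 fell and 9 of 10 did not pass, where 0.467% of all genes were called higher and 0.485% lower. At an unadjusted p under 0.05 by limma the count there was 5 of 10 in either direction, with no share of all genes at that threshold to set beside it. The median there was 0.09 beside 0.006 over all genes.

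Among myeloid factors that act with C/EBP proteins, SPI1, which encodes PU.1, differed by -0.09 ± 0.077 in replated against fresh, -0.20 ± 0.077 in frozen against fresh and 0.11 ± 0.077 in replated against frozen cells and did not pass (adjusted p = 0.562, 0.215 and 0.364). KLF4, of monocyte differentiation, rose 1.52-fold in frozen against fresh cells (adjusted p = 0.0376) and fell 1.59-fold in replated against frozen cells (adjusted p = 0.00568). FLI1 was called higher in replated than in frozen cells (0.91 ± 0.23, adjusted p = 0.0292), although its replated arrays at 6.43, 6.01 and 6.48 overlapped the frozen arrays at 6.03, 5.21 and 4.95. No other of the 8 factors was called, and 0 were in replated against fresh cells. Over all genes 4.59% were called in replated against fresh, 0.952% in frozen against fresh and 12.1% in replated against frozen cells. At an unadjusted p under 0.05 by limma the counts were 1, 5 and 3 of 8 factors in those comparisons. The share of all genes at that looser threshold was not counted, so nothing is read from these counts. The median differences of the 8 factors were -0.03 in replated against fresh, 0.02 in frozen against fresh and -0.07 in replated against frozen cells.

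Of 14 tested receptor and granule genes under C/EBP control, 3 rose in replated against fresh cells and 0 fell, where 2.44% of all genes were called higher and 2.15% lower (median 0.03 beside -0.001 over all genes). They were LYZ, lysozyme (1.81-fold, adjusted p = 6.99e-05), and S100A8 (1.34-fold, adjusted p = 0.0251) and S100A9 (log2 difference 0.38, adjusted p = 0.0202), calcium-binding proteins of myeloid cells. The same 3 rose in replated against frozen cells, where CAMP, an antimicrobial peptide gene, fell 1.41-fold (adjusted p = 0.0308). Over all genes 6.6% were called higher and 5.5% lower in that comparison. In frozen against fresh cells 0 of 14 passed by limma, where 0.952% of all genes were called at the same adjusted threshold. At an unadjusted p under 0.05 by limma the count was 1, with no share of all genes at that threshold to set beside it. CSF1R, the receptor for macrophage colony-stimulating factor and a classical C/EBP target, lay within 0.03 log2 units of no difference in all 3 comparisons, and IL6R within 0.09.

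Among 7 tested inflammatory genes that C/EBP beta or delta bind, PTGS2, cyclooxygenase-2 (2.16-fold, adjusted p = 0.00237), and CCL3 (2.00-fold, adjusted p = 0.0244) rose in frozen against fresh cells and 0 fell, where 0.467% of all genes were called higher and 0.485% lower (median 0.37 beside 0.006 over all genes). The other PTGS2 probe, which was dimmer, differed by 0.16 (adjusted p = 0.652) in that comparison and by -0.29 (adjusted p = 0.260) in replated against frozen cells. In replated against fresh cells TNF fell 1.65-fold (adjusted p = 0.0280). HP, haptoglobin, was detected on 0 of 3 replated arrays and was at least 1.22-fold lower, with the replated level set at the dimmest detected signal. The fit's HP difference of -0.36 (adjusted p = 0.0328) uses those undetected values. By the fit 2 of 7 fell, HP among them, where 2.15% of all genes did, with a median of -0.30 beside -0.001. Between replated and frozen cells CXCL8, TNF, PTGS2 and CCL3 fell in replated cells, by 1.60-fold to 2.70-fold (adjusted p between 0.000474 and 0.0188), which is 4 of 7 where 5.5% of all genes fell, with a median of -0.67 beside -0.004. This list was chosen with earlier results of these data known, so nothing is read from its shares or medians. The 2.70-fold of CCL3 rests on a probe detected on 1 of 3 replated arrays. IL6, IL12B, NOS2, SAA1 and PTX3 were detected on too few arrays to be tested.

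**Figure D4:**
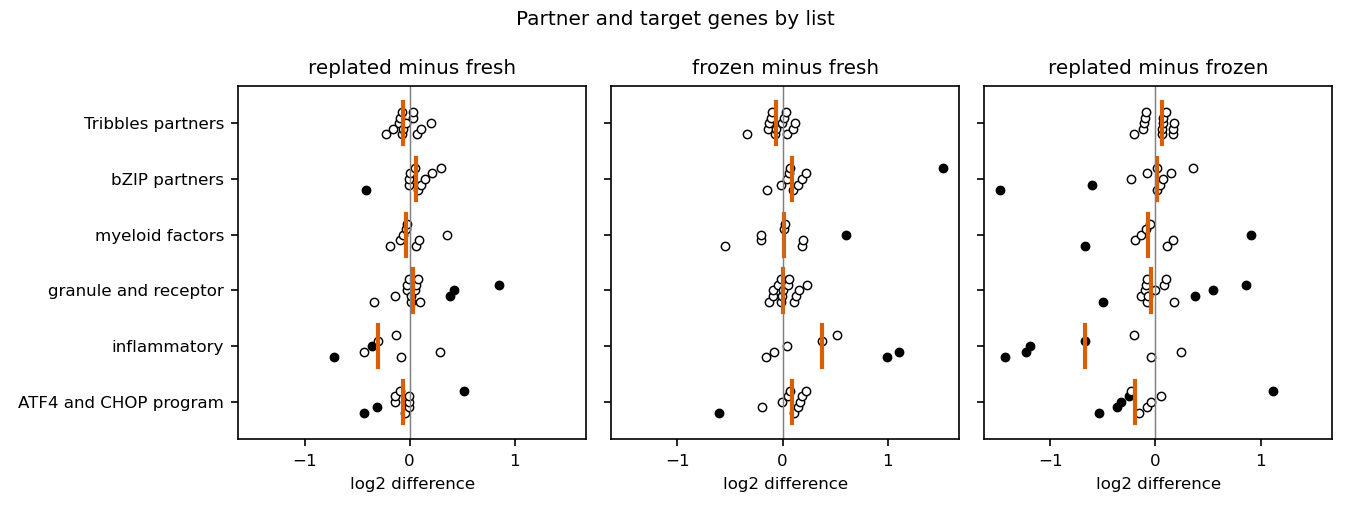
Log2 differences (horizontal axis) of the tested genes in 6 lists of Tribbles partners, bZIP partners, myeloid factors, C/EBP target genes and the ATF4 and CHOP program, for replated minus fresh, frozen minus fresh and replated minus frozen cells. Each point is 1 gene by its brightest tested probe, filled at an adjusted p under 0.05, and the orange bar is the list's median. The inflammatory targets have medians of -0.30, 0.37 and -0.67, and the Tribbles partners have no filled point.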

How the data were processed

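THP-1 RNA was hybridised to 9 arrays, which sample titles assign to the 3 states. Per the labels' protocols it was extracted with a QIAGEN miRNeasy kit and labelled with an Ambion MessageAmp kit. The first deposited table holds unnormalized signal intensity and a detection score for 48803 probes; the score's header calls it a p-value, but it never falls as its own array's signal rises, so 1 minus the score served as detection p. The authors also deposited processed intensity that is background-corrected and quantile-normalized, since its sorted columns differ by at most 0.109% of the highest value (lowest 1.45, medians 5.04 to 5.06). The software behind either table was not stated in these sources.

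Signals were normalized with neqc of limma 3.58.1 (R 4.3.3; offset 16). Probes with a detection p under 0.05 on at least 3 arrays were kept, and lmFit and eBayes were fitted over all 9 arrays (6 residual df) after being tested on simulated data. Platform annotation gave 27578 probes 1 gene symbol, 13 probes several and 21212 none; names were brought up to date by Entrez ID (27541) or accession (12) and otherwise left (25). A list gene is represented by its brightest tested probe. Members, lists and tests were chosen with earlier results of these data known. The text names the called genes of each list, up to 4 per list and comparison, with DDIT3, ATF4, COP1, STK40, SPI1, CSF1R and IL6R whatever their values, and the 3 nearest profiles of each member called by the F test. Alternatives varied the background correction, offset, centring, detection filter, array weights, replicate block and the arrays fitted, and used the authors' values; centring on tested probes was added after the data were seen. The number of arrays limits the precision.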

Additional observations from a re-analysis of the deposited data

How the results depend on the processing

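TRIB1 was called with the same direction in all 3 comparisons under all 20 alternatives, with log2 differences from -0.99 to -0.78 in replated against fresh, 0.91 to 1.12 in frozen against fresh and -2.08 to -1.73 in replated against frozen cells. The count of called members was 1 in frozen against fresh cells under every alternative. In replated against fresh cells it was 1 in the fit reported and 3 with normexp at offset 50 (TRIB1, TRIB3 and CEBPD); it was 2 (TRIB1 and TRIB3) with no background correction, neqc at offset 50, detection p under 0.01 on all arrays or array weights. In replated against frozen cells it was 2 in the fit reported, 4 with normexp at offset 50, no background correction, neqc at offset 50 or the stricter detection filter (CEBPD and CEBPG added), and 1 with the authors' values, the replicate block or only those states; leaving out 1 array gave 1 to 3. It was 3 with median centring, which lost TRIB3 and added CEBPD (adjusted p = 0.0427) and CEBPG (adjusted p = 0.0265), and 3 with array weights, which added CEBPG (adjusted p = 0.0448). By the F test it was 2 in the fit reported, 4 under those same 4 settings and 1 with median centring, the authors' values or the replicate block, and 1 to 2 with 1 array left out. CEBPE had no value under the stricter filter, and the F test none with only the states compared.

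Counts over all probes moved more. In replated against fresh cells 747 calls became 1361 with normexp at offset 50, 1305 with no background correction, 1333 with neqc at offset 50, 468 with median centring, 427 with the authors' values, 1199 with the stricter filter and 444 with the replicate block, and 245 to 696 with 1 array left out. In frozen against fresh cells 184 became 585, 565, 542, 827, 103, 366 and 104 in the same order, 287 with centring on tested probes and 54 with only those states, and 52 to 139 with 1 array left out. In replated against frozen cells 2095 became 1011 to 2028 with 1 array left out. The F test's 1743 became 2978, 2877, 2914 and 1062 (the authors' values), and 712 to 1428 with 1 array left out. The split of 88 higher and 96 lower in frozen against fresh cells became 199 and 386, 189 and 376, 187 and 355 (the 3 background settings), 70 and 757 with median centring, 200 and 87 with centring on tested probes, 131 and 235 with the stricter filter and 36 and 18 with only those states. In replated against frozen cells 1132 higher and 963 lower became 2028 and 369 with median centring and 918 and 1479 on tested probes. Median centring moved the median of all tested probes in frozen against fresh cells to -0.10; TRIB1 lay at 0.91 there. The cause of these moves was not tested, except that leaving out arrays leaves fewer.

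Same-numbered arrays did not deviate together (correlations of -0.048 to 0.047), so no pairing by number was seen, which does not exclude one. The replicate block took the call of TRIB3 in replated against frozen cells (adjusted p = 0.0645) but none of TRIB1. Dim signal limits TRIB2 and CEBPE, and 3 arrays per state limit differences of about 1.2-fold, the size at which TRIB3, CEBPD and CEBPG lie near the threshold.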
